A study of Mus musculus with 14 samples.

Results

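Transcript levels of 6 cation channels of the transient receptor potential (TRP) family were followed in mouse Th1 cells, known for making interferon gamma, and Th2 cells, known for interleukin 4. The members were Trpm4, Trpm2, Trpm7, Trpm6, Trpv2 and Trpc1. All probe sets annotated to 1 of these genes were taken, whatever their values, which gave 12 of the 45101 probe sets and 6 of 18194 genes. Of the 12 probe sets, 10 passed the filter on low signal described under processing. Both probe sets of Trpc1 failed it.

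TRP channels are tetramers that let cations cross a membrane. When a T cell receptor is engaged, calcium stores empty and store-operated channels of the Orai family open, and the size of the calcium entry depends on the membrane potential. TRPM4 is opened by internal calcium but conducts sodium and potassium and not calcium, so it depolarises the cell and limits calcium entry. TRPM2 is opened by ADP-ribose, TRPM7 and TRPM6 join a channel permeable to magnesium with a kinase domain, TRPV2 is a calcium-permeable channel studied in leukocytes, and TRPC1 is a subunit of channels linked to phospholipase C.

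The study inhibited Trpm4 in each cell type by siRNA or by a retrovirus and profiled total RNA on Affymetrix arrays. T cells had been polarised to Th1 or Th2 for 2 weeks. Both cell types had 7 conditions. Cells were left untreated, or given siRNA to Thy1 or to Trpm4. Others were infected with vector only or with DN (dominant negative) Trpm4, and each infection was profiled after 4 h and after 12 h of stimulation. Thy1 siRNA and vector only are taken as the controls. The labels name neither the stimulus, the mouse strain nor its age, and give no time for the untreated and siRNA cells. Each of the 14 conditions was 1 array, so there were no replicates and no spread within a condition. Tests therefore ran over matched pairs of arrays, except that of siRNA-treated against untreated cells, which blocked on cell type. The p-values measure only the spread between these samples. Pairs of one set are not independent of each other, and comparisons that share arrays are not independent either. Signal is a linear intensity, given as deposited for single arrays. Differences are on a log2 scale of the quantile-normalised signal plus 16, given ± SE. Where leaving out a pair leaves 1 pair of a set or cell type, its p rests on the spread of the other pairs, and the lone pair is assumed to vary like them. A value was called when the adjusted p of limma (Benjamini-Hochberg over 29467 probe sets) was under 0.05.

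Total signal per array lay between 7324680 and 10608700. The labelled cell types were set beside their markers. Gata3 signal was 199.55 to 386.82 in Th1 and 1474.19 to 3837.38 in Th2. Il4 was 2.96 to 25.82 and 225.97 to 8477.53, and Ifng was 1407.83 to 11518.1 in Th1 and 25.11 to 1372.09 in Th2. Over 7 pairs limma called all 4 Th2 markers lower in Th1, beside 9.79% of all probe sets in either direction. Of 4 Th1 markers it called 2 higher in Th1, Ifng and Il12rb2, and did not call Tbx21 or Cxcr3. All 4 T helper markers (Cd3e, Cd3g, Cd4, Cd28) exceeded the median of the array in all 14 arrays. The arrays were of different kinds in the ratio of 3′ to 5′ signal of the control probe sets, a sign of RNA or labelling quality. In 6 arrays (both Th1 4 h arrays and all 4 Th2 retrovirus arrays) the log2 ratio for Gapdh was 5.43 to 5.91, and in the other 8 (the untreated, the siRNA and both Th1 12 h arrays) it was -0.25 to 0.04. Th1 and Th2 were therefore compared within 1 kind of array in the untreated and siRNA set and at 4 h, but not at 12 h. In bulk RNA, fewer cells of a type and less RNA per cell cannot be told apart.

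In RefSeq records for the assembly GRCm38.p6 the genes lie at chr7:45303155-45334071 (Trpm4), chr10:77907722-77969909 (Trpm2), chr2:126791558-126876261 (Trpm7), chr19:18730177-18892521 (Trpm6), chr11:62574486-62600305 (Trpv2) and chr9:95705072-95750386 (Trpc1). The array table gives no build and no exon for a probe set. The 250 bases before a listed transcription start are printed for Trpm6 and Trpv2, the members whose main probe sets were called in several comparisons, at chr19:18749480-18749729 and at chr11:62574236-62574485, both on the plus strand, 5′ to 3′, from RefSeq. The Trpm6 start in the promoter table lies inside the gene record given above, downstream of its first base. Trpv2 has 3 listed starts, and the most upstream is shown. Capitals mark matches, on either strand, to GGAAA, the core bound by NFAT, the factor that T cell calcium signals activate, or to GATA, the core bound by the Th2 factor GATA3.
Trpm6: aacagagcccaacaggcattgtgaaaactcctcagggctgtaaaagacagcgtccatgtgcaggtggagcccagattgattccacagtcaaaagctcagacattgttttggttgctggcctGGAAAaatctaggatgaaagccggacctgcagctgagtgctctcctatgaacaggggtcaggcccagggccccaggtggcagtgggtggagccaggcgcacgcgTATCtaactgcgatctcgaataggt
Trpv2: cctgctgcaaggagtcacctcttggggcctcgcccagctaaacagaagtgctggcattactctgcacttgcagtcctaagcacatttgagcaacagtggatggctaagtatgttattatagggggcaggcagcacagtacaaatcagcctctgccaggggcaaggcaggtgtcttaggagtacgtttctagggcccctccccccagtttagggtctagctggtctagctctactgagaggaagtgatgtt
Trpm6 held 1 GGAAA and 1 GATA (read as TATC on the printed strand), and this Trpv2 window held 0 of either. The window of the most downstream Trpv2 start, at chr11:62575377-62575626, held 1 of each. The AP-1 element TGANTCA had 0 matches in both. Of all 32851 promoters of the same length, 55.6% held GGAAA, 53.6% held GATA and 6.75% held TGANTCA, so both cores are common. In all, 5 of the 6 members had a promoter record, Trpm4 being the exception.

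The channels were detected to very different degrees. Probe sets of Trpm4, Trpv2, Trpm6 (1438877_at) and 3 of the 4 for Trpm7 exceeded the array median in 14 of 14 arrays. The remaining Trpm7 probe set (1416801_at) did so in 7 arrays, the Trpm2 probe sets 1436225_at and 1459482_at in 10 and in 6, and the Trpm6 probe set 1427642_at in 12. The Trpc1 probe sets did so in 0 arrays: their signal was 1.38 to 22.02 (1421096_at) and 1.15 to 9.5 (1421095_a_at), against array medians of 19.88 to 28.3. The highest Trpc1 signals, 22.02 and 18.38, came from the Th1 4 h vector and DN Trpm4 arrays. In the other 12 arrays 1421096_at was at 1.38 to 8.97. Trpc1 was not tested.

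**Figure D1:**
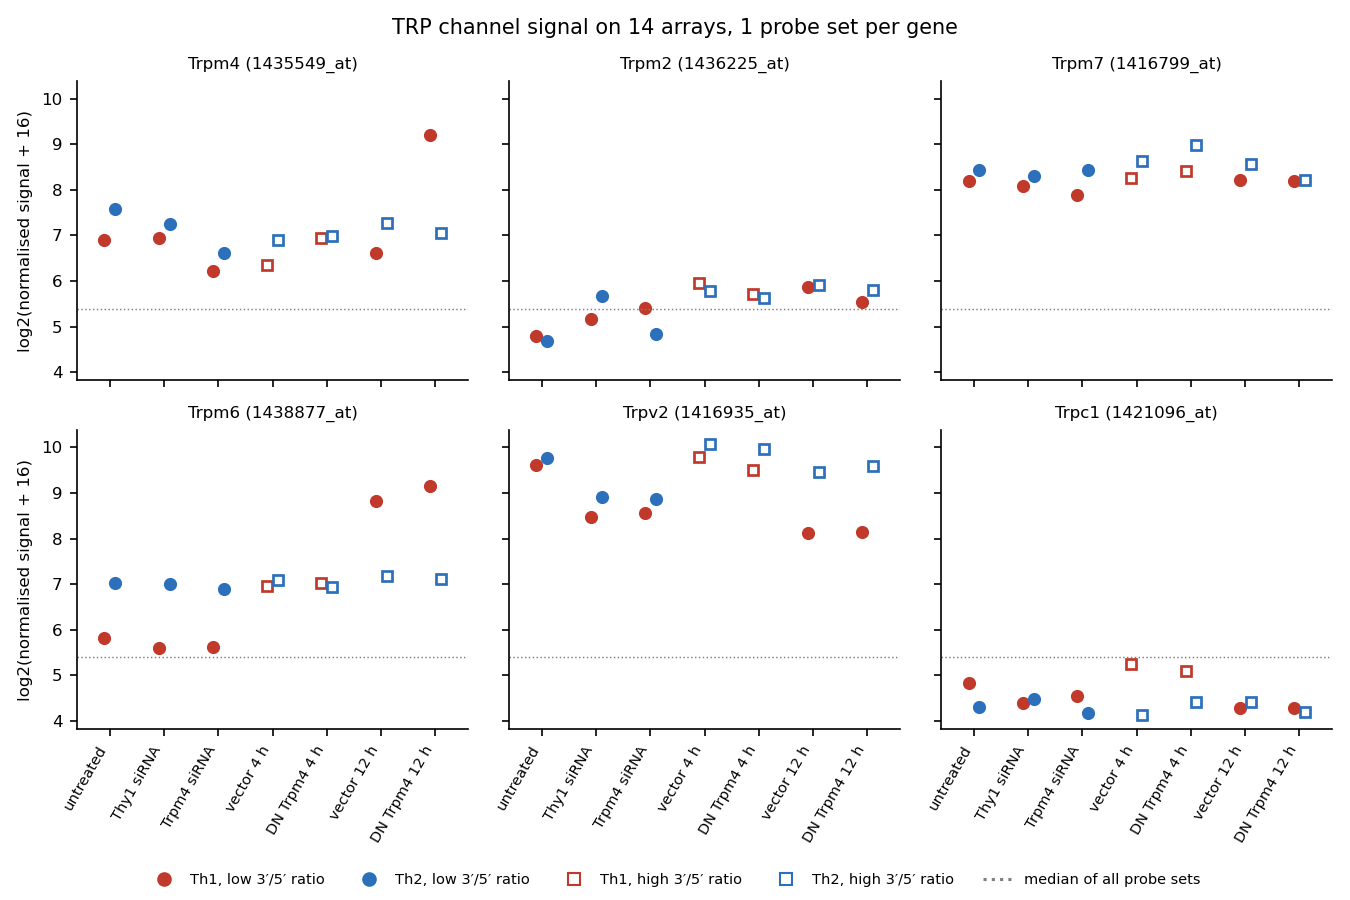
Signal of the main probe set of each of the 6 channels in the 14 arrays, as log2 of normalised signal plus 16, 1 point per array, with Th1 in red and Th2 in blue, open squares for arrays with a high 3′ to 5′ ratio, and the median of all probe sets as a dotted line. Trpm6 is near 5.6 to 5.8 in the untreated and siRNA Th1 arrays and at 8.82 and 9.16 in Th1 at 12 h, while its 7 Th2 points stay between 6.88 and 7.17.

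Trpm4, the targeted gene, was read by 1 probe set (1435549_at). Signal in Th1 was 76.41 untreated, 100.30 after Thy1 siRNA and 58.44 after Trpm4 siRNA. In Th2 the same conditions gave 160.74, 133.38 and 84.47. In both cell types the Trpm4 siRNA array was thus the lowest of its set. Trpm4 siRNA minus Thy1 siRNA was -0.72 in Th1 and -0.63 in Th2. Over these 2 pairs it was -0.68 ± 0.10. It did not pass (limma adjusted p = 0.409, with 1 residual degree of freedom), and passed when the variance prior followed the mean signal (adjusted p = 0.0232).

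With the retrovirus the Trpm4 signal went the other way in Th1. At 4 h it was 70.54 with vector and 119.15 with DN Trpm4, and at 12 h it was 75.31 and 515.59, the highest of all 14 arrays. In Th2 it was 117.00 and 127.89 at 4 h, and 135.39 and 129.10 at 12 h. DN Trpm4 minus vector was 0.60 and 2.59 in Th1 and 0.09 and -0.21 in Th2, at 4 h and 12 h respectively. Over the 4 pairs the mean was 0.77 ± 0.35 and did not pass (limma adjusted p = 1). Whether this probe set reads the RNA of the construct was not tested, so its signal in DN Trpm4 arrays checks neither the label nor the loss of channel function.

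Leaving out the arrays in which Trpm4 was targeted, deposited Trpm4 signal was 70.54 to 100.30 in Th1 and 117.00 to 160.74 in Th2. On the normalised log2 scale these ranges overlapped, at 6.35 to 6.95 in Th1 and 6.90 to 7.59 in Th2. Over all 7 pairs Th1 minus Th2 was -0.07 ± 0.31 (limma adjusted p = 0.912), below 0 in 6 of 7 pairs. Without the DN Trpm4 12 h pair, whose difference was 2.16, it was -0.44 (adjusted p = 0.104). Over the 4 pairs not targeted, a choice made after seeing the data, it was -0.54 (adjusted p = 0.350). In the 12 h set alone it was 0.76 ± 0.54, and 2.16 without the vector 12 h pair, which leaves the DN Trpm4 pair alone. Trpm4 signal was thus lower in Th1 in all pairs but that one, and the lower signal did not pass in any of these fits.

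No channel passed the test of Th1 against Th2 over all 7 pairs. Of the 10 probe sets 0 were called in either direction, beside 9.79% of all probe sets tested, and 2 had an unadjusted p under 0.05. These were Trpv2 and Trpm7 (1416799_at), which were lower in Th1 in 7 of 7 pairs. The counts hide differences between the sets of arrays. A test of whether Th1 minus Th2 differed between the untreated and siRNA set, the 4 h set and the 12 h set called 4 probe sets of 3 genes (Trpm6, Trpv2 and 2 of Trpm7), beside 27.1% of all.

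Trpm6 (1438877_at) had the widest range of the 10 probe sets on the log2 scale, 5.60 to 9.16. In untreated, Thy1 siRNA and Trpm4 siRNA Th1 cells its signal was 30.62, 31.08 and 32.11, and in the matching Th2 cells 104.44, 110.47 and 105.83. Signal varied little within each of these groups. Th1 minus Th2 in this set was -1.29 ± 0.13 over 3 pairs (limma adjusted p = 0.00144), the 1 call among the 10 probe sets in this set, beside 11.9% of all in either direction and 7.17% lower. In the same set Cd68 of macrophages (-0.80, 1 of 5 macrophage and dendritic cell markers tested) and Cd4 of T helper cells (-0.99, 1 of 4) were called lower in Th1. Cd8a of CD8 T cells (1.05) was called higher, as 1 of 2 CD8 and natural killer cell markers tested, whose median was 0.44. The part of these markers in the Trpm6 difference was not tested. The Trpm6 call passed under all 11 other settings tried. With the spread estimated from these 3 pairs alone, the adjusted p was 0.0463.

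At 4 h Trpm6 signal in Th1 was 118.40 with vector and 126.60 with DN Trpm4, and in Th2 137.22 and 122.28. These 4 arrays lay close together, and Th1 minus Th2 was -0.02 ± 0.16. In this set limma called 0 of the 10 probe sets (2 at an unadjusted p under 0.05), beside 7.86% of all. At 12 h Th1 had 389.40 with vector and 495.43 with DN Trpm4, above every other array, while Th2 had 126.05 and 133.95. Th1 minus Th2 was then 1.85 ± 0.16 over 2 pairs (limma adjusted p = 1.72e-04). The difference of Th1 minus Th2 between sets was called (adjusted p = 5.13e-04), 12 h minus the untreated and siRNA set being 3.14.

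Across the sets Trpm6 was thus lower in Th1, level and higher in Th1, while its 7 Th2 arrays stayed between 104.44 and 137.22. The 2 Th1 12 h arrays are of the kind with a low 3′ to 5′ ratio, and the other 6 arrays of that kind had 30.62 to 110.47. The 6 arrays of the kind with a high ratio had 118.40 to 137.22. On the normalised log2 scale these 2 groups of 6 arrays overlapped, at 5.60 to 7.02 (low ratio) and 6.94 to 7.17 (high ratio). The Th1 12 h values were above those of the other arrays of either kind. Array kind cannot be told apart from time in Th1 or from cell type at 12 h. Its part in the Trpm6 values was not tested. Over the 5 pairs of arrays of the same kind Th1 minus Th2 for Trpm6 was -0.78 (limma adjusted p = 0.135). The second Trpm6 probe set (1427642_at) had signal of 12.02 to 47.61 throughout. Its Th1 minus Th2 in the untreated and siRNA set was -0.63 ± 0.21 (adjusted p = 0.0906), and -0.93 (adjusted p = 0.00106) without the untreated pair. It was not called at 12 h.

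**Figure D2:**
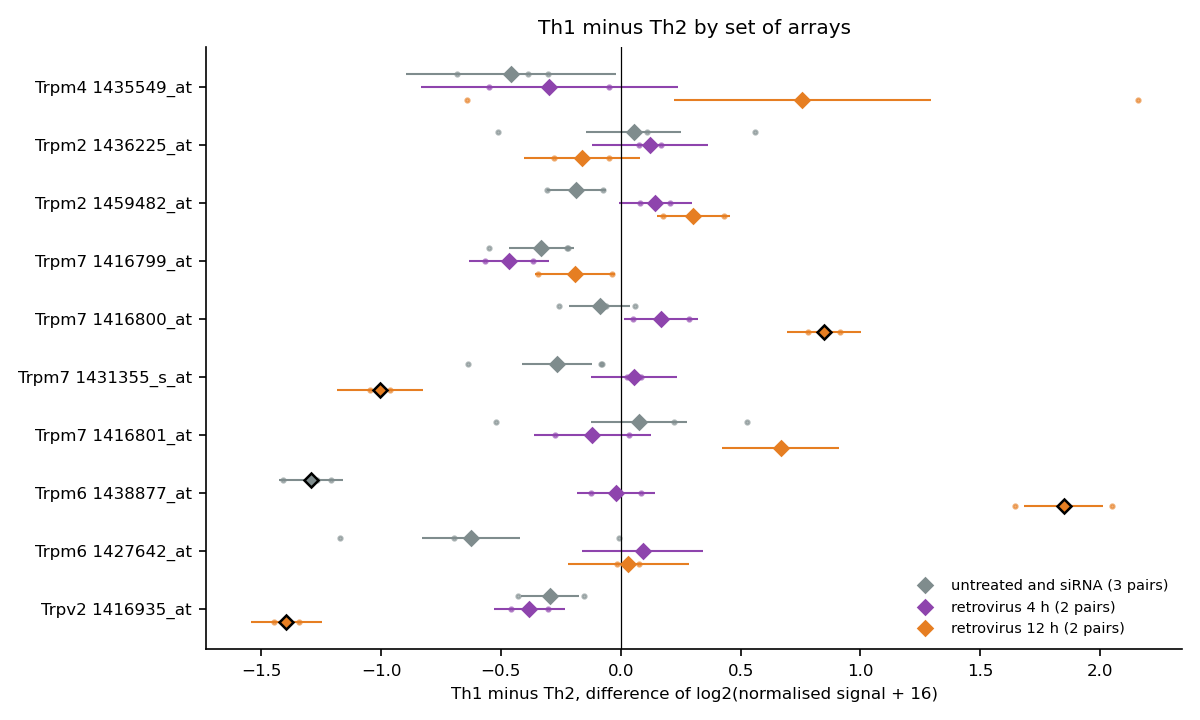
Th1 minus Th2 for each channel probe set in the untreated and siRNA set (3 pairs), the retrovirus 4 h set (2 pairs) and the retrovirus 12 h set (2 pairs), in log2 units, with the fitted difference, its SE and the single pairs. Trpm6 1438877_at moves from -1.29 through -0.02 to 1.85, and Trpv2 from -0.30 through -0.38 to -1.40.

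Trpv2 (1416935_at) was high in every array, above 85.8% of probe sets in the lowest one. Its signal in untreated, Thy1 siRNA and Trpm4 siRNA cells was 635.83, 347.77 and 400.85 in Th1, and 757.74, 534.91 and 542.99 in Th2. At 4 h it was 849.03 and 718.78 in Th1 (vector, then DN Trpm4) and 1050.40 and 839.22 in Th2. At 12 h it was 232.39 and 232.84 in Th1 and 602.38 and 697.94 in Th2. Th2 was the higher array of all 7 pairs, and the lowest signals were those of Th1 at 12 h. Over all pairs Th1 minus Th2 was -0.63 ± 0.19 (limma adjusted p = 0.0595), so it did not pass.

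Set by set, Th1 minus Th2 for Trpv2 was -0.30 ± 0.12, -0.38 ± 0.15 and -1.40 ± 0.15. The last of these was called (limma adjusted p = 3.83e-04), and the first was called only without the untreated pair (-0.37, adjusted p = 0.0452). The difference between sets was called (adjusted p = 0.0111). It did not pass without the vector 12 h pair, without the DN Trpm4 12 h pair or with no pair block, the highest adjusted p over the other settings being 0.276. Over the 5 pairs of arrays of the same kind, Trpv2 was -0.33 (adjusted p = 0.156). In the 12 h set 4 of 10 probe sets were called, 2 higher and 2 lower, beside 39.2% of all (18.7% higher and 20.5% lower), a share near the background. Array kind and cell type cannot be told apart at 12 h. Among markers, Itgax of dendritic cells was called lower in Th1 at 4 h (-1.56) and at 12 h (-1.18), each time as 1 of 5 tested. At 12 h Cd79a (-0.91, 1 of 3 B cell markers) was lower and the fibroblast gene Col3a1 (0.96, 1 of 2 tested) higher. Of the 4 T helper markers Cd28 (-0.64) was lower, and Cd3e (1.28) and Cd4 (1.49) were higher. The part of these markers in the channel values was not tested.

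Trpm7, read by 4 probe sets, gave different answers from each. Signal of 1416799_at was 216.86 to 348.20 in Th1 and 295.47 to 470.06 in Th2. It was lower in Th1 in 7 of 7 pairs, with a mean of -0.33 ± 0.11 that did not pass (limma adjusted p = 0.0956). It passed with the deposited signal (-0.41, adjusted p = 0.0378) and with a pseudocount of 64 (-0.29, adjusted p = 0.0443). At 12 h 1416800_at was higher in Th1 (0.85 ± 0.16, adjusted p = 0.00418) and 1431355_s_at was lower (-1.01 ± 0.18, adjusted p = 0.00373). Neither passed without the DN Trpm4 12 h pair (adjusted p = 0.0714 and 0.0630). So within 1 gene and 1 comparison the calls had opposite signs. The calls of both in the test between sets (adjusted p = 0.0282 and 0.0385) were lost without any 1 of the 4 retrovirus pairs or the Thy1 siRNA pair (highest adjusted p = 0.184 and 0.189).

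Both of these probe sets differed by array kind. Signal of 1431355_s_at was 238.41 to 320.61 in the 6 arrays with a high 3′ to 5′ ratio and 27.60 to 109.15 in the other 8. Signal of 1416800_at was 81.96 to 100.23 in those 6 arrays and 116.10 to 199.72 in the other 8, in the other direction. How many of all probe sets part by array kind was not counted. Over all 14 arrays these probe sets correlated at r = -0.84, against -0.08 within the 8 arrays and 0.45 within the 6. The probe set 1416799_at, at 216.86 to 470.06 over all arrays, correlated with 1416800_at at -0.47. These r values are descriptions over arrays that share cell type, treatment and array kind. The probe sets 1416799_at, 1416800_at and 1416801_at were designed on 1 target accession and 1431355_s_at on another, and no level of Trpm7 as a gene can be given from them.

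**Figure D3:**
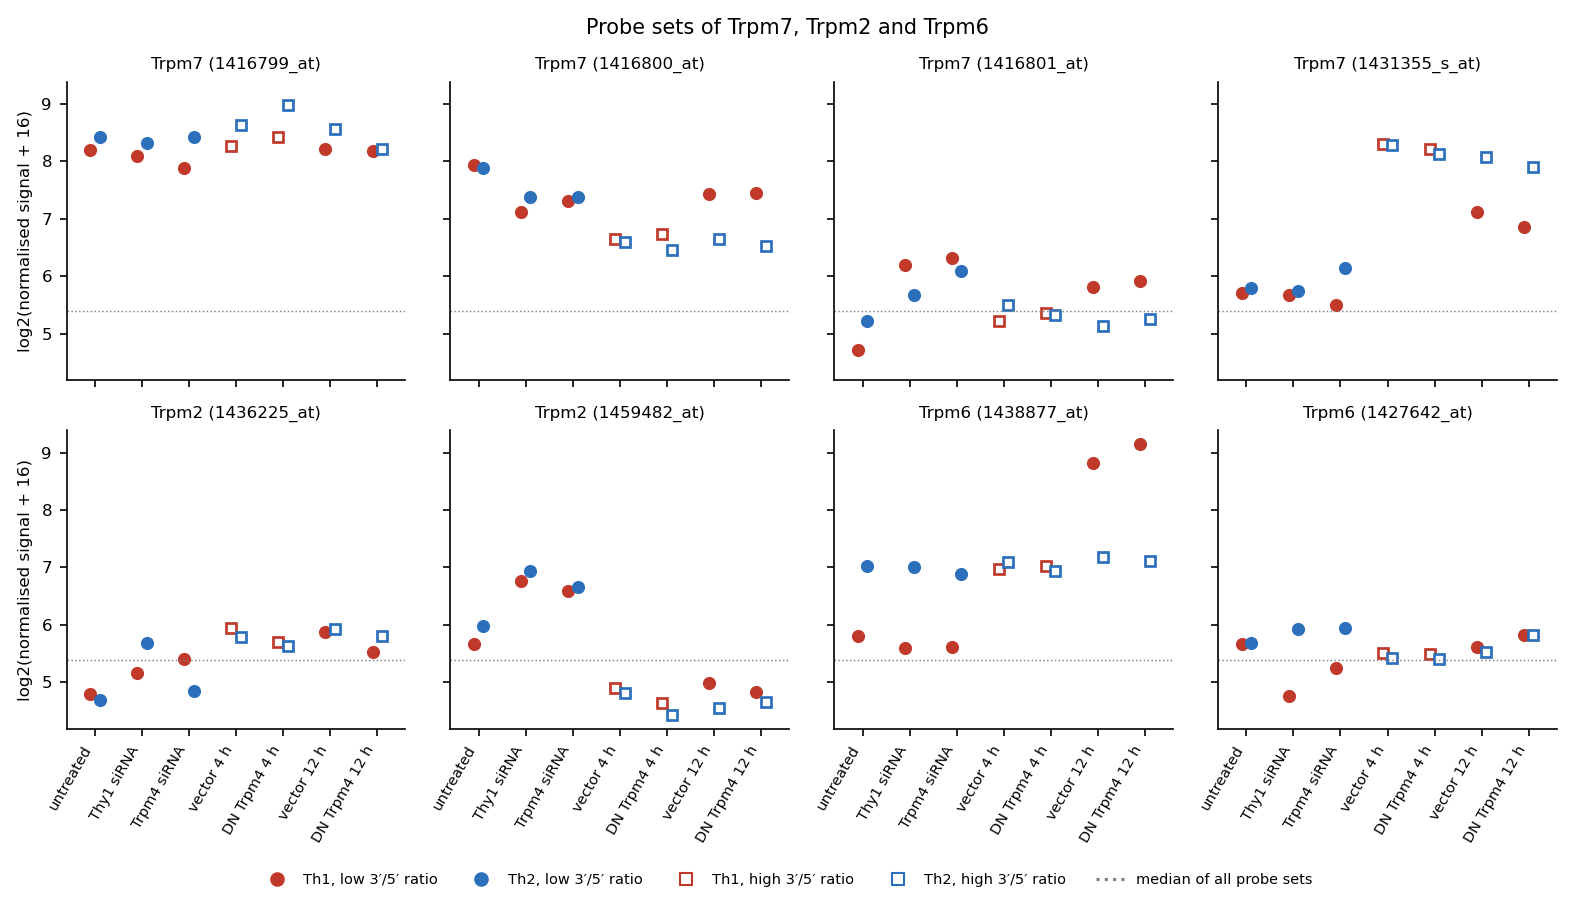
Log2 of normalised signal plus 16 for the probe sets of Trpm7, Trpm2 and Trpm6 in the 14 arrays, marked by array kind (high or low 3′ to 5′ ratio). Trpm7 1431355_s_at is high and Trpm7 1416800_at is low in the 6 arrays with a high ratio.

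The Trpm2 probe sets lay above the array median in some arrays and below it in others, and they also parted by set. Signal of 1459482_at was 26.63 and 42.44 in untreated Th1 and Th2 cells, 80.82 to 104.88 in the 4 siRNA arrays and 5.56 to 15.03 in the 8 retrovirus arrays. Signal of 1436225_at was 8.51 and 8.77 in untreated cells, 14.08 to 37.15 with siRNA and 29.34 to 48.10 with retrovirus. They correlated at r = -0.60 over the 14 arrays. Th1 minus Th2 over 7 pairs was 0.05 ± 0.12 for 1459482_at and 0.01 ± 0.14 for 1436225_at, so neither separated the cell types.

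Between 4 h and 12 h of stimulation some channel probe sets changed in Th1. Trpm6 (1438877_at) rose by 1.99 ± 0.14 (limma adjusted p = 1.03e-05) and Trpv2 changed by -1.51 ± 0.15 (adjusted p = 5.05e-05), over the vector and the DN Trpm4 pair. Trpm7 again split, with 1431355_s_at at -1.28 ± 0.14 (adjusted p = 8.06e-05), 1416800_at at 0.74 ± 0.13 (adjusted p = 0.00159) and 1416801_at at 0.57 ± 0.14 (adjusted p = 0.0087). In all, 6 of 10 probe sets were called, 4 higher and 2 lower, beside 56.1% of all probe sets (27% higher and 29.1% lower). The probe sets not called were both of Trpm2, Trpm7 1416799_at and Trpm6 1427642_at. The members' share is near that background, and in Th1 the time and the array kind cannot be told apart.

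Trpm4 was the sixth call in Th1, at 1.27 ± 0.37 (limma adjusted p = 0.0177), but its pairs differed, with 0.27 for vector and 2.27 for DN Trpm4. Without the DN Trpm4 pair it was 0.27 (adjusted p = 0.475), and the call was also lost with a pseudocount of 1 and with no pair block. In the vector arrays Trpm4 signal was 70.54 at 4 h and 75.31 at 12 h. Of the Trpm7 calls, 1416800_at did not pass without the vector pair (adjusted p = 0.0502), and 1416801_at did not pass with either pair left out (highest adjusted p = 0.127).

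In Th2, where all 4 retrovirus arrays are of 1 kind, limma called 0 of 10 probe sets (1 at an unadjusted p under 0.05), beside 10.1% of all. Trpv2 was lower at 12 h in both pairs, at -0.50 ± 0.15 (limma adjusted p = 0.0724), and passed under 4 other settings, with adjusted p of 0.0248 to 0.0366. Trpm7 1416799_at was -0.42 ± 0.18, and passed without the vector pair (-0.77, adjusted p = 0.0271). Trpm6 was 0.12 ± 0.14. So the Th2 direction for Trpv2 was that of Th1, at a smaller size, and Trpm6 had no comparable difference.

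The difference between the cell types in the 12 h minus 4 h effect was tested directly. Of 10 probe sets 5 were called, 3 higher and 2 lower, beside 38.2% of all (18.1% higher and 20.1% lower). Th1 minus Th2 of the effect was 1.87 ± 0.20 for Trpm6 (limma adjusted p = 3.18e-04) and -1.01 ± 0.21 for Trpv2 (adjusted p = 0.00596). For Trpm7 it was -1.06 ± 0.19 (1431355_s_at), 0.68 ± 0.19 (1416800_at) and 0.79 ± 0.20 (1416801_at). Trpm6 and Trpm7 1431355_s_at kept their call under all 12 other settings. Trpv2 did not pass without the Th1 vector pair (adjusted p = 0.0746). Neither 1416800_at nor 1416801_at passed without the Th1 vector pair or without the Th1 DN Trpm4 pair (highest adjusted p = 0.173 and 0.114). The 1416800_at call was also lost with the deposited signal, with median centring and with a pseudocount of 1. Trpm4 was 1.06 ± 0.52 (adjusted p = 0.148), and 2.05 without the Th1 vector pair, which leaves 1 pair in Th1.

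**Figure D4:**
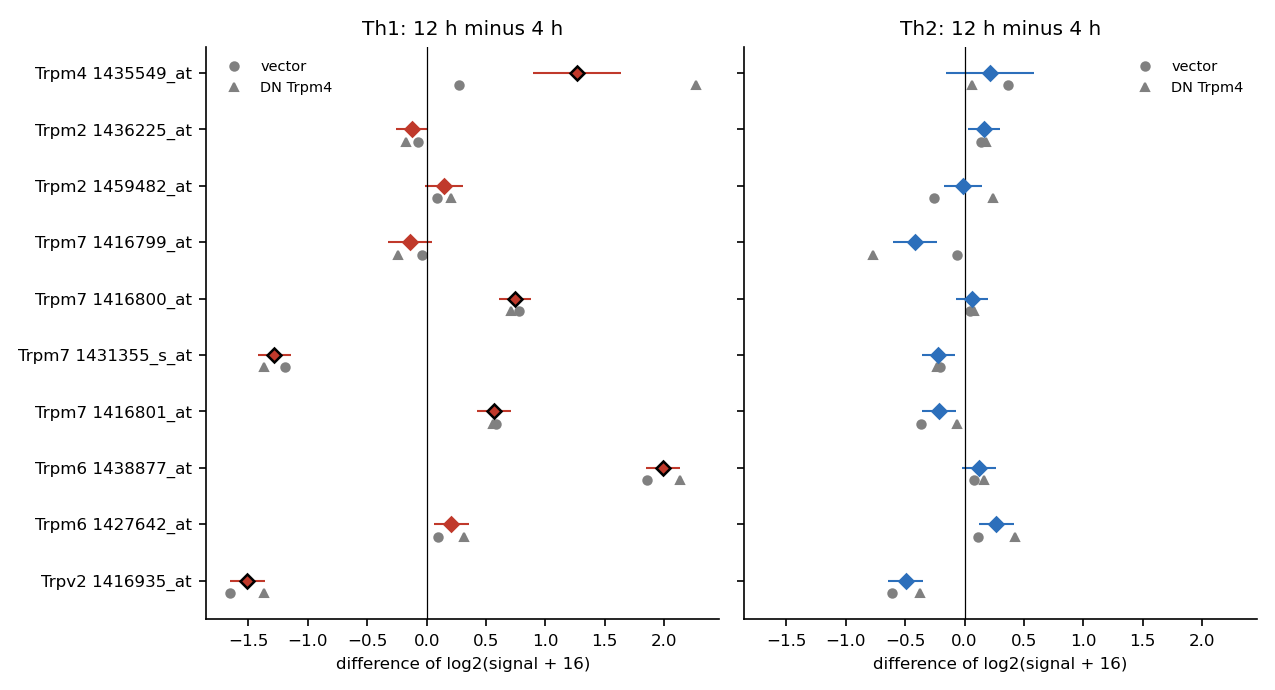
12 h minus 4 h of stimulation in Th1 and in Th2, in log2 units on 1 common axis, for the 10 tested probe sets: diamonds are fitted differences with SE (black edge, called), grey circles the vector pair and grey triangles the DN Trpm4 pair. In Th1, Trpm6 1438877_at is at 1.99 and Trpv2 at -1.51, and the 2 pairs agree for both, whereas those for Trpm4 are at 0.27 and 2.27.

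The siRNA arrays also differed from the untreated ones, whichever siRNA was used. The fit of this contrast blocked on cell type, and the 2 siRNA arrays of each cell type share 1 untreated array. Over 4 siRNA and 2 untreated arrays, Trpv2 changed by -0.98 ± 0.13 (limma adjusted p = 0.00371) and Trpm2 1459482_at rose by 0.91 ± 0.15 (adjusted p = 0.00731). For Trpm7, 1416800_at was -0.61 ± 0.14 (adjusted p = 0.0186) and 1416801_at was 1.11 ± 0.25 (adjusted p = 0.0177). That is 4 of 10 probe sets, 2 in each direction, beside 38.3% of all (21.2% higher and 17.1% lower). The Trpv2 call passed under all 12 other settings tried, none of which left out an untreated array. The Trpm2 call passed under the 11 in which its probe set was tested, the strictest filter on low signal having left it out. The Trpm7 calls did not pass without single siRNA arrays: 1416800_at without any 1 of the 4 (adjusted p up to 0.118) and 1416801_at without any 1 of 3, the Th2 Thy1 siRNA array being the exception (up to 0.0593). Trpm4 was -0.48 ± 0.28 (adjusted p = 0.219) and Trpm6 showed no call.

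Other genes moved with that contrast. Ifng was 3.54 ± 0.39 and Il13, a Th2 cytokine, 4.89 ± 0.50 higher in siRNA-treated cells (limma adjusted p = 0.00222 and 0.00193), and 3 of 4 T helper markers were lower. Macrophage and dendritic cell markers Cd68 (-0.86) and Adgre1 (-0.79) were lower (2 of 5 listed). Cd79a of B cells (-1.24, 1 of 3 tested) and Fcer1a of mast cells (-1.25, 1 of 2) were lower too, while Col1a2 of fibroblasts was higher (0.64, 1 of 2). The 5 macrophage and dendritic cell markers had a summed signal of 224.55 and 417.24 in untreated arrays and 159.56 to 232.27 in siRNA arrays. The part of these in the channel values was not tested. For Th1 against Th2, the same 5 markers summed to 135.66 to 224.55 in Th1 and 210.84 to 417.24 in Th2, and 3 B cell markers to 45.92 to 85.98 and 65.58 to 172.89. Markers of CD8 and natural killer cells (3) summed to 28.34 to 401.42 in Th1 and 33.23 to 191.84 in Th2, mast cell and basophil markers (3) to 57.16 to 107.94 and 71.36 to 234.42, and fibroblast markers (3) to 24.22 to 83.54 and 30.75 to 89.78. No listed marker was at a signal of 0, and Ms4a2 (mast cells) and Col1a1 (fibroblasts) exceeded the array median in 0 arrays.

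Inhibiting Trpm4 was followed by no call in any channel. Over 6 pairs of inhibited minus control arrays, limma called 0 of 10 channel probe sets and 0% of all 29467 probe sets, of which 1733 had an unadjusted p under 0.05. Trpm4 itself was 0.29 ± 0.34, with the siRNA pairs below 0 and the DN Trpm4 pairs of Th1 above 0. Trpv2 was -0.04 ± 0.07, Trpm6 0.01 ± 0.08 and Trpm7 (1416799_at) 0.00 ± 0.09. Both Trpm2 probe sets were lower in 5 of 6 pairs, at -0.20 ± 0.08 (1459482_at, adjusted p = 0.810) and -0.24 ± 0.11 (1436225_at). Trpm7 1431355_s_at was also lower in 5 of 6, and Trpm7 1416801_at was higher in 5 of 6.

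No difference between Th1 and Th2 in the effect of inhibition was called either, with 0 of 10 members, 0% of all probe sets and 1032 at an unadjusted p under 0.05 by limma. By method, DN Trpm4 minus vector called 0 of 10 and 0% of all (997 at an unadjusted p under 0.05), and Trpm4 siRNA minus Thy1 siRNA called 0 of 10 and 0% of all (3318). In the 4 DN Trpm4 pairs Trpm2 1436225_at was lower in 4 of 4 (-0.21 ± 0.10) and so was Trpm7 1431355_s_at (-0.17 ± 0.09). Neither passed.

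**Figure D5:**
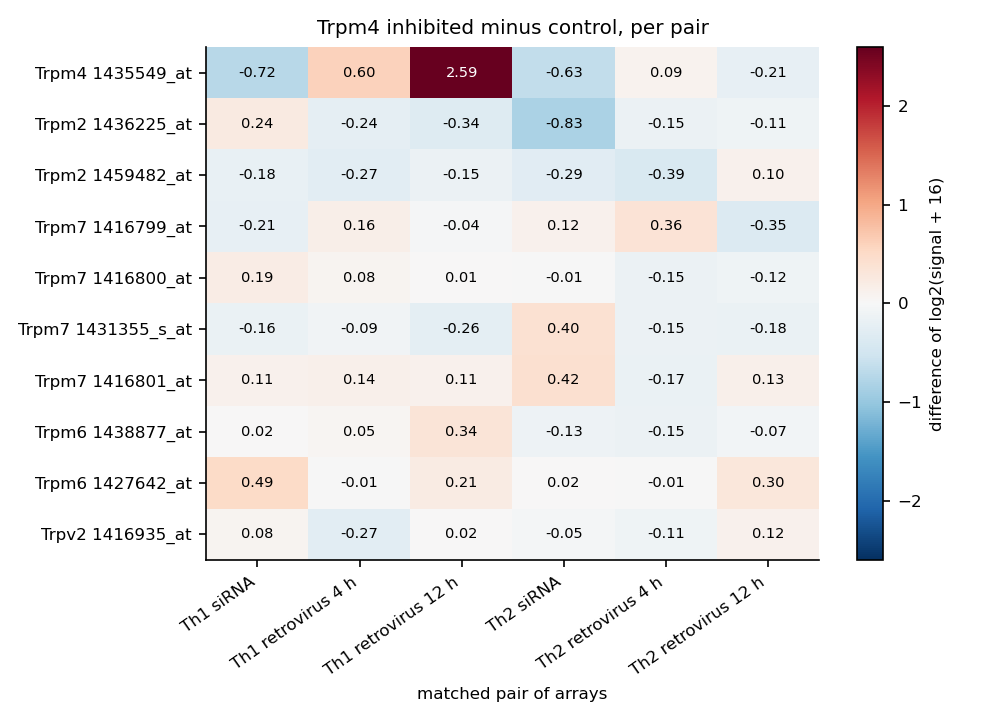
Trpm4 inhibited minus control in each of the 6 matched pairs, in log2 units, for the 10 tested channel probe sets (colour and printed value). The Trpm4 row runs from -0.72 and -0.63 in the siRNA pairs to 2.59 in the Th1 12 h retrovirus pair, and the other 9 rows lie between -0.83 and 0.49.

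Among the other TRP genes, Mcoln2, which encodes the endolysosomal channel TRPML2, was higher in Th2 throughout. Its signal was 40.55 to 186.12 in Th1 and 215.83 to 900.94 in Th2. Th1 minus Th2 was -1.95 ± 0.13 over 7 pairs (limma adjusted p = 2.93e-05), and -1.84, -2.03 and -2.02 in the untreated and siRNA, 4 h and 12 h sets, each called. It was the 1 call over all pairs among 7 tested genes of 22 listed (0 higher, 1 lower), whose median was 0.07, beside 0.01 over all probe sets, of which 9.79% were called. Mcoln2 was also lower at 12 h than at 4 h in Th2 (-1.30) and in Th1 (-1.28). Mcoln1, the lysosomal channel TRPML1, was -1.92 and Trpc2, a channel of vomeronasal neurons, was 2.05 at 12 h against 4 h in Th1, where array kind changed too.

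The genes around the channels in T cell ion handling were described by 3 lists. Of 16 tested genes of calcium entry and membrane potential, limma called 0 higher and 1 lower in Th1 against Th2 over 7 pairs, Itpr2, a store calcium release channel (-1.59 ± 0.32, adjusted p = 0.0145). The list median was -0.10, beside 0.01 over all, with 9.79% of all probe sets called. In the untreated and siRNA set 4 were lower in Th1 and 0 higher: Atp2b1, a plasma membrane calcium pump (-1.27), Itpr2 (-1.24), Atp2a3, a store calcium pump (-0.64), and Kcnn4, a calcium-activated potassium channel (-0.50), with a median of -0.47 beside 0.00 over all, where 11.9% of all probe sets were called and 7.17% were lower. In siRNA-treated against untreated cells 4 were higher and 6 lower, beside 21.2% and 17.1% of all, with Stim1, the store calcium sensor, at -3.39 ± 0.37, Orai2 at -1.01 and Orai1 at 0.97.

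In Th1 between 4 h and 12 h, 4 of the 16 calcium genes were higher and 7 lower, beside 56.1% of all probe sets called (median -0.13 beside -0.01). Kcna3, the voltage-gated potassium channel that polarises T cells, was 2.62 ± 0.18 and the Orai1 pore 0.99 ± 0.15, while Itpr2 was -2.88 ± 0.14. Array kind changed too between these Th1 arrays. In Th2, where array kind was the same, 0 were higher and 5 lower, beside 10.1% of all called (median -0.42 beside 0.01). Kcna3, Orai1 and Itpr2 were not among the calls in Th2.

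The magnesium transport list sits beside Trpm6 and Trpm7. Of its 13 genes, all tested, limma called 0 higher and 2 lower in Th1 over 7 pairs. Slc41a2, a magnesium carrier, had signal of 20.79 to 154.15 in Th1 and 185.13 to 351.47 in Th2, a difference of -1.74 ± 0.22 (adjusted p = 0.00131), called in each of the 3 sets. Nipa1 was -0.80 ± 0.17 (adjusted p = 0.018). The list median was -0.09, beside 0.01, with 9.79% of all called. At 12 h against 4 h in Th1, where array kind changed too, 4 were higher and 5 lower, beside 56.1% of all called. Among them were Slc41a1 (-2.37), Slc41a2 (-1.72), Mrs2, a mitochondrial magnesium channel (0.62), and Magt1 (0.60). In Th2 Magt1 was 1.03 ± 0.13 and Mmgt1 0.71 ± 0.15, with Slc41a1 at -0.91 ± 0.19 (2 higher, 1 lower, beside 10.1% of all called).

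The ADP-ribose list concerns the agonist of TRPM2. Of 8 tested genes 0 were called in Th1 against Th2 over 7 pairs (limma, beside 9.79% of all, median 0.19 beside 0.01). At 12 h against 4 h in Th1, where array kind changed too, 4 were higher and 3 lower. Parp14, an ADP-ribosyltransferase, was at -3.90 ± 0.13, Parg, which degrades poly-ADP-ribose, at -1.35 ± 0.14 and Parp1, which makes it, at 2.01 ± 0.14. As for the channels, 56.1% of all probe sets were called in that comparison. With Trpm4 inhibited limma called 0 probe sets of the array, so 0 genes of these 4 lists (1733 probe sets at an unadjusted p under 0.05).

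The genes whose signal ran most like each channel over the 14 arrays were named by Pearson r, 3 for each main probe set, as a description. For Trpv2 they were Marchf2, a ubiquitin ligase, Evi2a and Il7r, the interleukin 7 receptor, each at 0.98. Within the 8 arrays with a low ratio and the 6 with a high ratio, Marchf2 was at 0.97 and 0.99, Evi2a at 0.97 and 0.89, and Il7r at 0.99 and 0.97. The genes were picked over these same arrays, so values within the 8 and the 6 are no independent check. For Trpm7 (1416799_at) they were Ep300, a histone acetyltransferase, at 0.90 (0.81 and 0.96), Atxn10 at 0.88 and Pgap1 at 0.87. For Trpm6 they were Acvr2b, an activin receptor, and Ctdspl2, both at 0.94, and Nppb at 0.93. Within the 8 and the 6 arrays the values were 0.96 and -0.46 for Acvr2b, 0.96 and 0.15 for Ctdspl2, and 0.95 and 0.61 for Nppb.

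For Trpm4 the highest were Micall2 at 0.76 (0.85 within the 8 arrays and 0.37 within the 6), Abraxas1 at 0.75 (0.75 and 0.76) and S100a5 at 0.73 (0.78 and 0.78), with the Th1 DN Trpm4 12 h array far from the rest. For Trpm2 (1436225_at) they were Kmt2d, a histone methyltransferase, at 0.91 (0.87 within the 8 arrays and -0.17 within the 6), Socs7 at 0.91 (0.86 and 0.54) and Klhdc4 at 0.90 (0.85 and 0.64). The arrays share cell type, treatment and array kind, all of which enter every r.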

How the data were processed

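RNA of 14 samples was measured on 1 Affymetrix array each. The authors deposited a linear intensity (signal) for each probe set. The summary of probes and the scaling are steps not given in the sources used here. The annotation gives 1 gene for 34958 of 45101 probe sets, several for 932 and none for 9211. Symbols were checked through Entrez identifiers (34754 found, 0 changed).

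Signals were quantile normalised, 16 was added and log2 taken (floor 4, array median 25.94). After leaving out 64 control probe sets, those above the array median in at least 2 arrays (29467) were fitted with limma 3.58.1 in R 4.3.3, two-sided. The block was the matched pair, or the cell type for siRNA-treated minus untreated. Fits were tested on simulated data. The main probe set of a member is the one with the highest mean; all its probe sets were named, with 3 like genes, and up to 3 called genes per list and direction. Genes of a list take the probe set of highest mean. The members and lists were chosen with earlier results of these data known. Alternatives were the deposited and median-centred values, other filters, pseudocounts and variance priors, no pair block and each pair left out. Signal near the floor understates differences, and the number of arrays limits precision.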

Additional observations from a re-analysis of the deposited data

Results flagged for a closer look

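Pairs that stood apart were sought in 30 groups of 4 to 7 pairs, and 3 were found, where chance gives about 1 in 20 groups. For Trpm4, Th1 minus Th2 was 2.16 in the DN Trpm4 12 h pair, the nearest of the other 6 pairs being at -0.05. For Trpm7 1431355_s_at, Trpm4 inhibited minus control was 0.40 in the Th2 siRNA pair, the nearest other pair being at -0.09. For Trpm7 1416801_at, DN Trpm4 minus vector was -0.17 in the Th2 4 h pair, with the nearest other pair at 0.11.

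A further 9 results were differences between groups that passed a direct test. The 12 h minus 4 h effect differed between Th1 and Th2 for Trpm6 (1.87), Trpv2 (-1.01) and the Trpm7 probe sets 1416800_at (0.68), 1431355_s_at (-1.06) and 1416801_at (0.79). Th1 minus Th2 differed between sets of arrays, with 12 h minus the untreated and siRNA set at 3.14 for Trpm6, -1.10 for Trpv2, 0.93 for Trpm7 1416800_at and -0.74 for Trpm7 1431355_s_at. The Th1 12 h arrays differ in array kind from the Th1 4 h and the Th2 12 h arrays, so array kind cannot be told apart from time or cell type in those steps. The Th1 12 h arrays are of the same kind as the untreated and siRNA arrays, but the Th2 12 h arrays are not. Array kind thus also differs in Th2 between the 12 h set and the untreated and siRNA set, and its part was not tested.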

How the results depend on the processing

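Of 1508 values of the members under another setting, 1447 stayed on the same side of the threshold, 42 lost a call and 19 gained one; 0 called values changed sign, while 79 that passed under neither setting did. The calls for Trpm6 1438877_at were lost under none of the settings tried. Counts of called members changed as follows, and the cause was not tested. For Th1 minus Th2 the count of 0 was 1 with the deposited signal, 1 with a pseudocount of 64 and 1 over the 3 untreated and siRNA pairs; leaving out single pairs gave 0 throughout. In the untreated and siRNA set it was 3 in place of 1 with the deposited signal, and 1 to 3 with single pairs left out. In the 12 h set it was 2 to 5 in place of 4 with single pairs left out. For the difference between sets it was 2 in place of 4 without the pair block, and 1 to 6 with single pairs left out; without the untreated pair Trpm6 1427642_at and Trpm7 1416801_at passed (adjusted p = 0.00326 and 0.0182), and without the vector 12 h pair, which leaves 1 pair at 12 h, Trpm4 did (0.0242). For Trpm4 siRNA minus Thy1 siRNA it was 1 in place of 0 with a variance prior that follows the mean. For 12 h minus 4 h in Th2 it was 1 in place of 0 with a pseudocount of 64, with a filter at the 75th percentile, with that variance prior and with no pair block, and 0 to 1 with single pairs left out. For its difference between cell types it was 3 to 6 in place of 5 with single pairs left out. For siRNA-treated minus untreated it was 2 in place of 4 with the filter at the 75th percentile (6 members tested), and 2 to 3 with single siRNA arrays left out. Counts of called probe sets over the whole array moved by over 1.5 times too. Without the pair block they were 837 in place of 2884 for Th1 minus Th2, 1558 in place of 3507 in the untreated and siRNA set, 1168 in place of 2317 in the 4 h set and 4286 in place of 7990 for the difference between sets. Subsets of pairs gave 1256 (same kind), 319 (untreated and siRNA) and 247 (Trpm4 not targeted) for Th1 minus Th2. A pseudocount of 1 gave 1275 in the 4 h set and 0 in place of 2970 for 12 h minus 4 h in Th2; a pseudocount of 64 gave 4, and the variance prior 98, in place of 0 for the siRNA comparison. The filter at the 75th percentile gave 7488 of 15504 in place of 11288 of 29467 for siRNA-treated minus untreated. With 1 pair or array left out, counts ran from 1450 to 2901 for Th1 minus Th2, from 1038 to 9693, from 122 to 181 and from 4985 to 5176 in its 3 sets, from 2130 to 16915 for their difference, from 9919 to 10583 for 12 h minus 4 h in Th1 (16537 with all), from 5845 to 12630 for its difference between cell types (11253) and from 6833 to 8169 for siRNA-treated minus untreated.

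Leaving out a pair of the siRNA comparison leaves no residual degrees of freedom and was not run. The labels carry no replicate numbers. Low signal of Trpm2, Trpc1, Trpm6 1427642_at and Trpm7 1416801_at limits detection.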
